A study of Homo sapiens with 4 samples.

Results

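The DNA replication machinery was followed in HCE cells after knockdown of KLF7, as 48 listed genes among 18417 genes measured on whole-transcript arrays. The genes were chosen by name for their role in copying DNA, each through the probe set that the platform annotation gives to that single symbol, and all 48 were measured. Total RNA came from 4 arrays. The 2 scramble control arrays were from cells transfected with a control siRNA pool, and the 2 siKLF7 arrays were from cells given pooled siRNA directed at KLF7, a zinc finger transcription factor studied here for its part in the corneal epithelium. Both groups were labelled as undifferentiated cells of the HCE line, were grown in the same medium, received siRNA at 20 nM and were collected 48 hours later. A pooled siRNA lowers a transcript without removing the gene, and 1 cell line was used.

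DNA replication is prepared in G1, when the origin recognition complex, CDC6 and CDT1 load the MCM2-7 helicase onto origins. In S phase the kinase CDC7 with DBF4, and CDC45 and the GINS complex, turn the loaded helicase into a moving fork, where polymerases alpha, delta and epsilon copy DNA behind it with the sliding clamp PCNA and its RFC loader. Most of these genes are transcribed in late G1 and S phase under E2F factors, so their RNA is widely read as a mark of cycling cells, in a stratified epithelium chiefly those of the basal layer.

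Levels are given as log2(signal + 16), where 16 is a pseudocount that damps dim signals, and differences as siKLF7 minus scramble control on that scale. Levels of KLF7 were 12.19 and 11.52 in controls and 10.56 and 10.15 after siKLF7, a difference of -1.50 (SE 0.28; limma's adjusted p = 0.639). Both siKLF7 arrays lay below both controls. KLF7 was lower against either control alone. Its difference was -1.16 (SE 0.13) without scramble control replicate 1 and -1.83 (SE 0.13) without scramble control replicate 2. Each of these fits rests on a lone control. Scramble control replicate 1 stood apart: it correlated with the other arrays at 0.934 to 0.938 across genes, while the other 3 correlated with each other at 0.990 to 0.994. Of the 10 corneal epithelial markers measured, 5 were at least 2-fold lower in that array than the mean of the other 3, and KRT3, a keratin that defines corneal epithelium, had a signal of 0.0055 there, against log2 levels of 10.51 to 11.27 in the other 3. KRT5 and KRT14, keratins of basal epithelial cells, were at 13.04 to 13.73 in every array. Of the 11 fibroblast or keratocyte markers, scramble control replicate 1 was at least 2-fold higher for 2, THY1 and POSTN. The mean log2 level over the markers of each other cell type was 7.29 to 7.61 for vascular endothelial, 6.60 to 6.76 for leukocyte, up to 7.16 for melanocyte and 6.99 to 7.41 for neural markers. Of the replication genes 2 of 48 were at least 2-fold away from the other 3 in that array, against 5.12% of all genes. Differences are therefore given with 4 arrays and with 3, leaving out scramble control replicate 1. The part of that array's different marker levels in the results was not tested. Whether arrays of a group stem from separate cultures is not in the labels, and p-values therefore cover the spread between these samples alone, possibly a technical one.

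E2F words, which the choice of genes did not use, stood at a minority of the replication promoters, more often than at promoters in general. RefSeq promoters of GRCh38.p14 were listed for 42 of the 48 genes, with 54 start sites in all. The 250 bases before each start were searched on both strands for the E2F words TTTCCCGC, TTTGGCGC, TTTCGCGC and TTTGCCGC. A word was found at 15 of the 54 starts (27.8%), each of a different gene, against 2.79% of all 35116 listed starts and 3.5% of starts of genes measured here. CCAAT, the word bound by NF-Y, was found at 55.6% of the replication starts and 32% of all, the GC box GGGCGG at 70.4% and 42.6%, and CACCC, a core word of Krüppel-like factor sites, at 44.4% and 54.7%. Among starts of genes measured here, the NF-Y word was found at 32.6%, the GC box at 54.7% and CACCC at 58.3%. GGGCGG and the E2F words can overlap, and starts of the same gene can overlap. A match is a word in a window, not a measured site.

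The stretches below were chosen to show the E2F words beside genes of different roles, and the words are in capitals, in either orientation. All are written 5′ to 3′ on the strand of the gene and end before its start. MCM6 lies on the minus strand (chr2:135876502-135876615) and carries the same pair of overlapping words 2 times. MCM7 (chr7:100101398-100101436) and PCNA (chr20:5126654-5126701) are on the minus strand, and RFC3 (chr13:33818074-33818121), TYMS (chr18:657594-657641) and POLA2 (chr11:65261889-65261936) on the plus strand.
MCM6: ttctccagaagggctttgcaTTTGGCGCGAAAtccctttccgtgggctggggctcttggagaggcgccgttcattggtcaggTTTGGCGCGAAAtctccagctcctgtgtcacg
MCM7: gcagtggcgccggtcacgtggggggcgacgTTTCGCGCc
PCNA: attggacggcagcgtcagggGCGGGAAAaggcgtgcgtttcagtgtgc
RFC3: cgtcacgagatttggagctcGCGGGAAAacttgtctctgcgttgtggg
TYMS: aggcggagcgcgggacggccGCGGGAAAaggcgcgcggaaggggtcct
POLA2: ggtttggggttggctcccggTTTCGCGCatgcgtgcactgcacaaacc

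The first question was whether replication genes differed between siKLF7 and control cells. No replication gene passed limma's test with 4 arrays or with 3, and nearly all lay within a small distance of the controls, most of them slightly above. The median difference over the 48 genes was 0.13 with 4 arrays and 0.15 with 3, against -0.05 and -0.04 over all genes. With 4 arrays, 37 of the 48 differences were above 0, where 41.8% of all genes were. With 3 arrays 39 were, where 42.2% of all genes were. Among the brighter 50% of genes, 4796 of 9209 were above 0 with 4 arrays and 4847 with 3. Of the 36 replication genes there, 29 were above 0 in either fit, with medians of 0.16 and 0.15 against 0.01 and 0.01. In bulk RNA, fewer or more cycling cells cannot be told apart from less or more RNA per cell.

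With 4 arrays, 0 of 48 passed an adjusted p of 0.05 (0% of all genes passed). At an unadjusted p under 0.05 the count was also 0, against 5.81% of all genes. With 3 arrays 0 of 48 passed, where 1.57% of all genes passed. Unadjusted, 7 were under 0.05, against 11.3% of all genes, and these were MCM7, MCM8, GINS1, RFC3, POLA1, RRM1 and RRM2, all higher in siKLF7 arrays. Limma's smallest adjusted p among the 48 was 0.639 with 4 arrays and 0.205 with 3. The exact permutation test of 2 arrays against 2 cannot go below p = 0.33 (two-sided), so it could call none of them.

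Both siKLF7 arrays lay above both controls for 21 of the 48 genes, where 16.3% of all genes did, and below both for 2, where 28.9% of all genes did. Dim genes as a whole leaned lower in siKLF7 arrays, so the brighter 50% of genes give a closer background. There 15 of 36 replication genes lay above both controls, against 21.8% of genes, and 0 below, against 20.3%. Taken one control at a time, both siKLF7 arrays lay above scramble control replicate 1 for 31 genes (35.2% of all genes) and above scramble control replicate 2 for 31 (29.7%). They lay below the first for 15 (48.2%) and below the second for 6 (44.6%). With quantile normalization 18 of the 48 lay above both controls, and with median centring 20. The shares of all genes after these scalings are not given here, and the shares above are for values without further scaling.

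**Figure D1:**
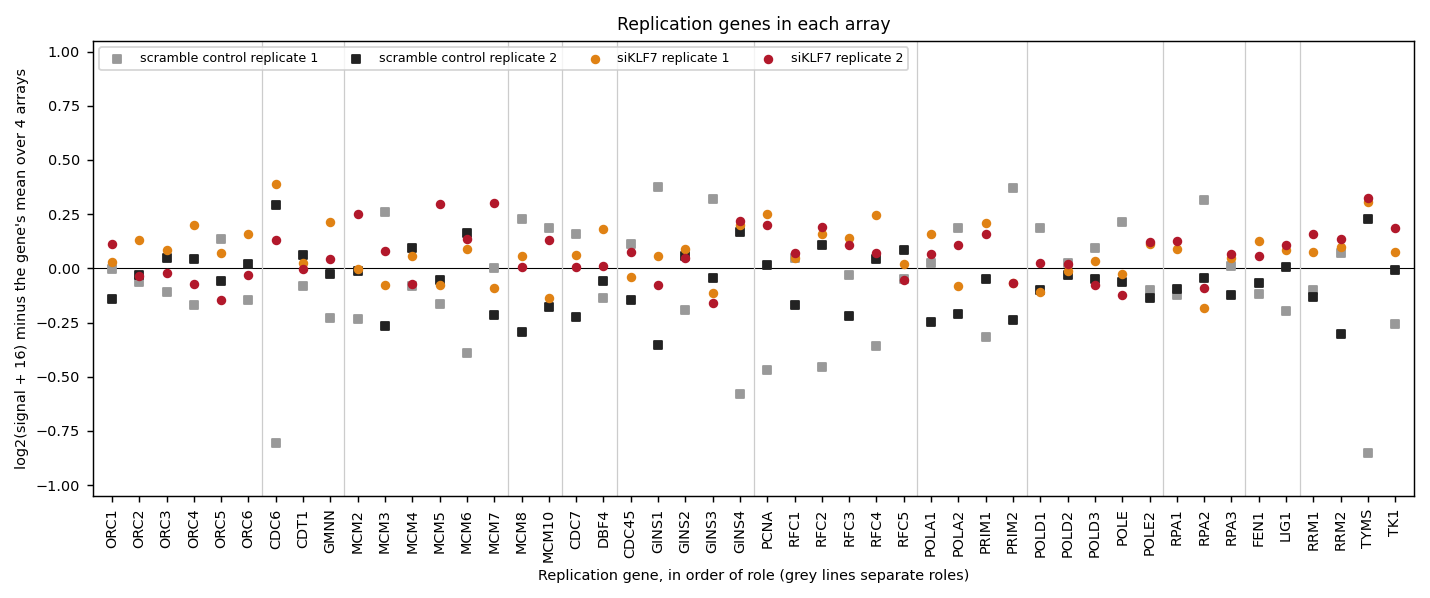
Level of each replication gene in each array as log2(signal + 16) minus the gene's mean over the 4 arrays, with genes in order of role. Grey squares are scramble control replicate 1, black squares scramble control replicate 2, and orange and red circles the siKLF7 arrays; the lowest points are those of CDC6 and TYMS in scramble control replicate 1.

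Large differences lay outside most intervals. With 3 arrays the 95% confidence intervals of all 48 genes lay inside a 2-fold change in either direction, and the intervals together ran from -0.42 to 0.73. That fit has 1 residual degree of freedom, its spread comes from the siKLF7 pair and from all genes, and the lone control is assumed to vary alike. With 4 arrays 45 of the 48 intervals lay inside a 2-fold change, and those of CDC6, GINS4 and TYMS did not. Their upper bounds were 1.55, 1.12 and 1.62.

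**Figure D2:**
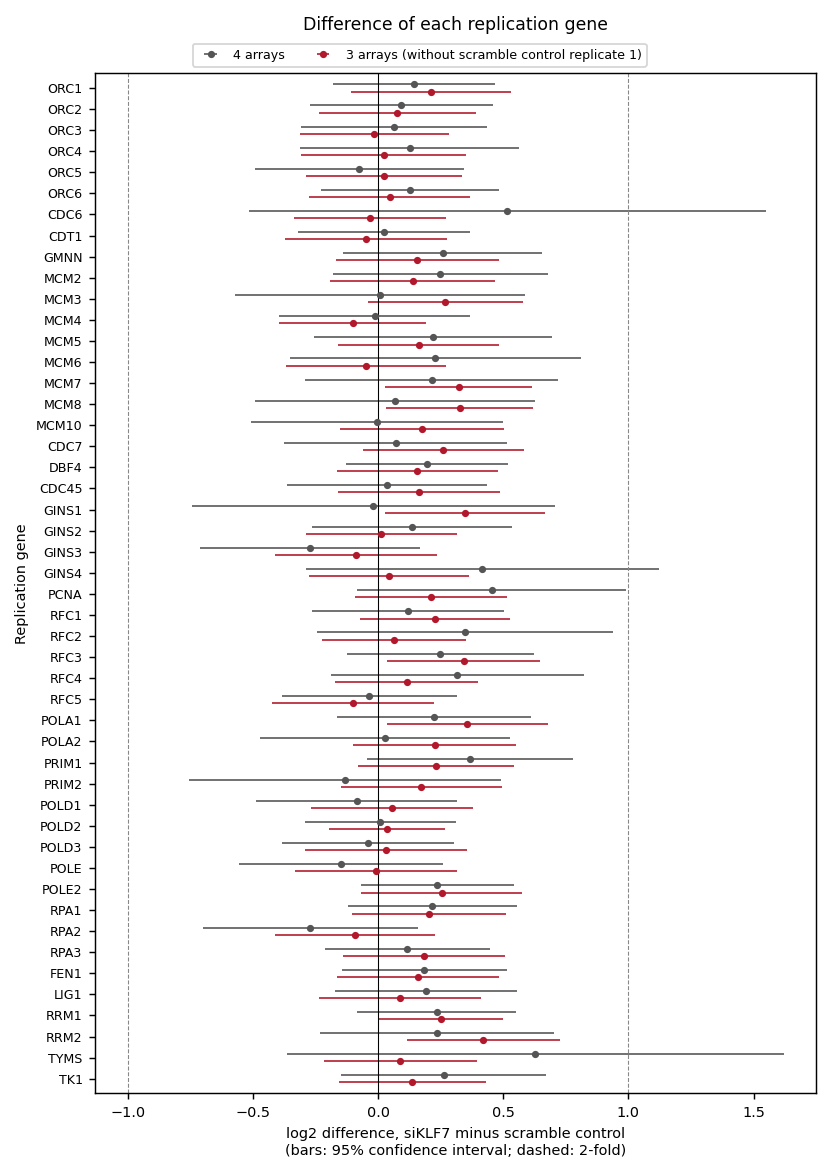
Difference of each replication gene, siKLF7 minus scramble control in log2 units, with 95% confidence intervals from limma, for 4 arrays (grey) and 3 arrays (red). Every interval with 3 arrays lies between the dashed 2-fold lines, and with 4 arrays those of CDC6, GINS4 and TYMS cross the upper line.

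The controls differed from each other more than the siKLF7 arrays did. The median absolute difference over the 48 genes was 0.24 between the controls and 0.09 between the siKLF7 arrays, against 0.20 and 0.12 over all genes. The mean level over the 48 was nonetheless close in the 2 controls, 8.95 and 8.96, and it was 9.09 in both siKLF7 arrays. Single genes thus lay on either side in scramble control replicate 1, while the set as a whole did not.

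**Figure D3:**
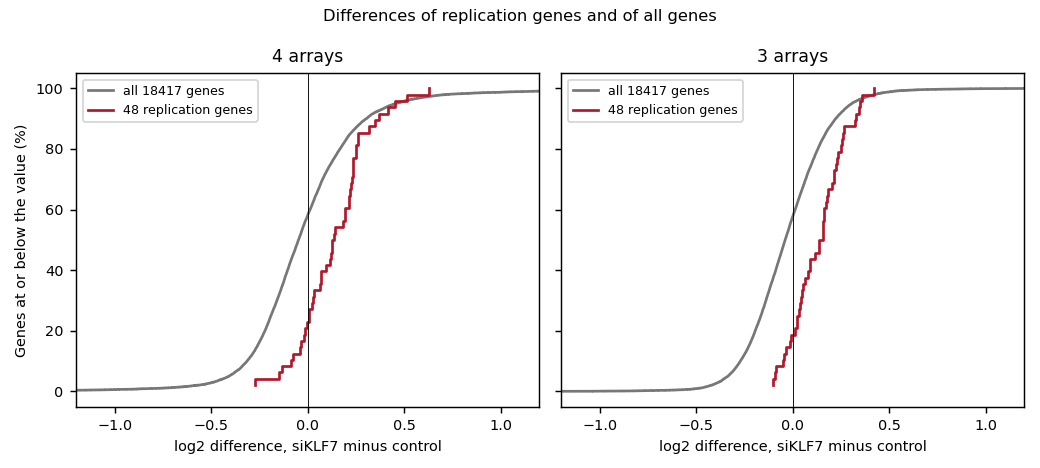
Share of genes at or below each log2 difference, siKLF7 minus control, for the 48 replication genes (red) and all 18417 genes (grey), with 4 arrays (left) and 3 arrays (right). The red line lies to the right of the grey one over most of its length, with medians of 0.13 and 0.15 against -0.05 and -0.04.

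The origin recognition complex, the 6-subunit ATPase that marks origins, was close to the controls, with differences from -0.08 to 0.14 with 4 arrays and -0.02 to 0.21 with 3. ORC1, its cell cycle regulated subunit, stood at 7.80 and 7.67 in controls and 7.83 and 7.92 in siKLF7 arrays, a difference of 0.14 (SE 0.12; 0.21 with 3 arrays). ORC4 stood at 8.51 and 8.72 in controls and 8.88 and 8.60 in siKLF7 arrays, and ORC6 at 7.42 and 7.58 in controls and 7.72 and 7.53 in siKLF7 arrays. Only for ORC1 did the groups not overlap.

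Among the helicase loading genes, CDC6 depended most on the control array. CDC6, the ATPase that brings the helicase to ORC, stood at 8.73 and 9.83 in controls and at 9.93 and 9.67 in siKLF7 arrays. Scramble control replicate 1 alone was low, 1.08 below the mean of the other 3, and the second control lay between the siKLF7 arrays. The difference was 0.52 (SE 0.39) with 4 arrays and -0.03 (SE 0.15) with 3. CDT1, which delivers the helicase with CDC6, stood at 8.52 and 8.67 in controls and 8.63 and 8.60 in siKLF7 arrays (0.02, SE 0.13; -0.05 with 3 arrays). GMNN encodes geminin, the inhibitor that keeps CDT1 from loading again in S phase. It stood at 8.55 and 8.75 in controls and 8.99 and 8.82 in siKLF7 arrays (0.26, SE 0.15; 0.16 with 3 arrays), and both siKLF7 arrays were above both controls.

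The MCM2-7 helicase subunits had a median difference of 0.22 with 4 arrays and 0.15 with 3, and ran from -0.01 to 0.25 and from -0.10 to 0.32. MCM2 stood at 8.22 and 8.44 in controls and 8.45 and 8.70 in siKLF7 arrays (0.25, SE 0.16; 0.14 with 3 arrays), and was the single subunit of the 6 with both siKLF7 arrays above both controls. MCM5 stood at 9.23 and 9.34 in controls and 9.31 and 9.69 in siKLF7 arrays (0.22, SE 0.18; 0.16 with 3 arrays). MCM7 stood at 10.24 and 10.03 in controls and 10.15 and 10.54 in siKLF7 arrays (0.21, SE 0.19; 0.32 with 3 arrays). In MCM2, MCM5 and MCM7 the second siKLF7 array was the higher of the pair, by more than the difference between the controls in each. MCM6, described after its values were seen, was at 8.51 in scramble control replicate 1 and at 8.99 to 9.06 in the other 3 arrays. MCM3 went the other way, at 9.91 in that array and 9.39 to 9.74 in the others, so that 2 subunits of the same ring stood on opposite sides in 1 array. MCM4 differed by -0.01 (SE 0.15; -0.10 with 3 arrays).

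MCM8, a helicase of the same family outside the ring, stood at 10.26 and 9.74 in controls and 10.09 and 10.04 in siKLF7 arrays. MCM10, which helps activate the helicase, stood at 8.75 and 8.39 in controls and 8.43 and 8.70 in siKLF7 arrays. In both genes the siKLF7 arrays lay between the controls. Of the firing kinase, CDC7, the catalytic subunit, stood at 8.02 and 7.64 in controls and 7.93 and 7.87 in siKLF7 arrays, also between the controls. DBF4, its activator, stood at 7.32 and 7.40 in controls and 7.64 and 7.46 in siKLF7 arrays (0.19, SE 0.12; 0.16 with 3 arrays), above both.

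CDC45 and the GINS subunits form the active helicase with the MCM ring, and the 4 GINS genes did not share a direction. GINS4 stood at 6.95 and 7.70 in controls and 7.73 and 7.75 in siKLF7 arrays. Its difference of 0.41 (SE 0.27) with 4 arrays became 0.04 (SE 0.16) with 3. GINS3 stood at 8.45 and 8.09 in controls and 8.02 and 7.97 in siKLF7 arrays (-0.27, SE 0.17; -0.09 with 3 arrays), 1 of only 2 replication genes below both controls. GINS2 stood at 9.50 and 9.75 in controls and 9.78 and 9.74 in siKLF7 arrays. GINS1, named after its values were seen, had controls at 9.66 and 8.92 on either side of siKLF7 arrays at 9.34 and 9.20. CDC45 differed by 0.03 (SE 0.15; 0.16 with 3 arrays).

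**Figure D4:**
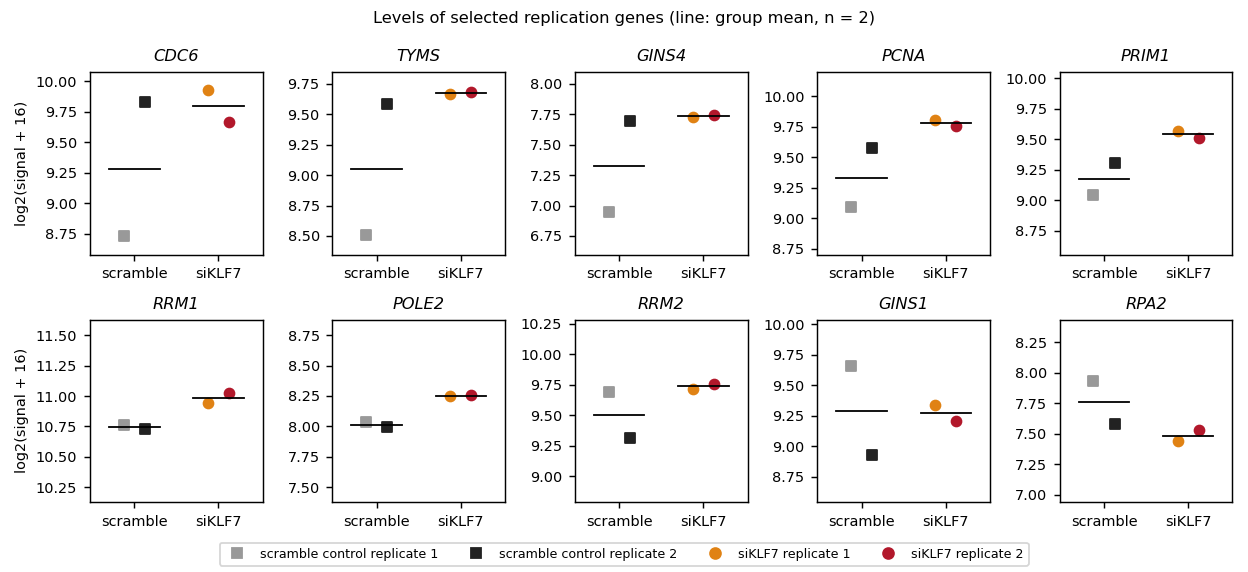
log2(signal + 16) of 10 replication genes in each array, with control arrays as squares, siKLF7 arrays as circles and a line at each group's mean (n = 2 per group, all panels spanning the same range of log2 units). In CDC6, TYMS and GINS4 scramble control replicate 1 alone is low. In TYMS, GINS4, PCNA, PRIM1, RRM1, POLE2 and RRM2 both siKLF7 arrays lie above both controls. In PCNA and PRIM1 scramble control replicate 1 is also the lower control. In GINS1 the siKLF7 arrays lie between the controls, and in RPA2 below them.

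The clamp and its loader were the role with the highest median with 4 arrays, 0.28. With 3 arrays the median was 0.16, and MCM8 with MCM10 (0.25), polymerase alpha-primase (0.23), the firing kinase (0.21), nucleotide supply (0.19) and single-strand binding (0.18) stood higher. Both siKLF7 arrays lay above both controls for 5 of the 6 clamp and loader genes, where 16.3% of all genes and 21.8% of the brighter 50% did. RFC1 and RFC2 were described after their values were seen. RFC1 was counted by a narrow margin, at 9.8925 and 9.6748 in controls and 9.8928 and 9.9128 in siKLF7 arrays. RFC2 differed by 0.35 (SE 0.23) with 4 arrays and 0.06 (SE 0.14) with 3. PCNA, the sliding clamp, stood at 9.09 and 9.57 in controls and 9.81 and 9.76 in siKLF7 arrays. Its mean signal was 638 ± 153 (SD, n = 2) in controls and 867 ± 21.7 (SD, n = 2) in siKLF7 arrays, a difference of 0.45 (SE 0.20; limma's adjusted p = 0.639). With 3 arrays the PCNA difference was 0.21 (SE 0.15; limma's adjusted p = 0.622). Among the loader subunits, RFC3 stood at 9.61 and 9.42 in controls and 9.78 and 9.75 in siKLF7 arrays (0.25, SE 0.14; 0.34 with 3 arrays). RFC4 stood at 9.72 and 10.12 in controls and 10.32 and 10.15 in siKLF7 arrays (0.32, SE 0.19; 0.11 with 3 arrays). RFC5 was the exception of the 6, with a difference of -0.04 (SE 0.13; -0.10 with 3 arrays).

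Polymerase alpha-primase, which lays the RNA-DNA primers, held the smallest p with 4 arrays. PRIM1, the catalytic primase subunit, stood at 9.04 and 9.31 in controls and 9.57 and 9.51 in siKLF7 arrays, with signals of 564 ± 76.3 (SD, n = 2) and 729 ± 19.2 (SD, n = 2). Its difference was 0.37 (SE 0.16; limma's unadjusted p = 0.069, adjusted p = 0.639), and 0.23 (SE 0.16) with 3 arrays. The partner subunit PRIM2 had no such order, at 9.51 and 8.89 in controls and 9.07 in both siKLF7 arrays (-0.13, SE 0.24; 0.17 with 3 arrays). POLA1, the polymerase subunit, stood at 8.03 and 7.77 in controls and 8.17 and 8.08 in siKLF7 arrays (0.22, SE 0.15; 0.36 with 3 arrays).

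Polymerases delta and epsilon, which extend the lagging and the leading strand, had a median of -0.04 with 4 arrays and 0.04 with 3. POLE2, the second subunit of polymerase epsilon, was alone among the 5 in lying above both controls, at 8.03 and 7.999 in controls and 8.25 and 8.26 in siKLF7 arrays (0.24, SE 0.12; 0.25 with 3 arrays). Its difference hardly depended on which control was used. POLE, the catalytic subunit, stood at 8.83 and 8.55 in controls and 8.59 and 8.49 in siKLF7 arrays (-0.15, SE 0.15; -0.0099 with 3 arrays). POLD1, the catalytic subunit of polymerase delta, stood at 8.13 and 7.85 in controls and 7.84 and 7.97 in siKLF7 arrays (-0.09, SE 0.15; 0.05 with 3 arrays).

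Replication protein A, the heterotrimer that coats single-stranded DNA, was split by subunit. RPA1 stood at 9.41 and 9.44 in controls and 9.63 and 9.66 in siKLF7 arrays (0.22, SE 0.13; 0.20 with 3 arrays), and RPA3 at 8.26 and 8.12 in controls and 8.30 and 8.31 in siKLF7 arrays (0.12, SE 0.12; 0.18 with 3 arrays). RPA2 stood at 7.94 and 7.58 in controls and 7.44 and 7.53 in siKLF7 arrays, the lowest difference of the 48 at -0.27 (SE 0.16; limma's adjusted p = 0.639). With 3 arrays RPA2 was at -0.09 (SE 0.16). Of the lagging strand enzymes, FEN1, the flap nuclease, stood at 8.53 and 8.58 in controls and 8.78 and 8.71 in siKLF7 arrays (0.18, SE 0.13; 0.16 with 3 arrays). LIG1, the ligase that seals Okazaki fragments, stood at 8.29 and 8.50 in controls and 8.57 and 8.59 in siKLF7 arrays (0.19, SE 0.14; 0.09 with 3 arrays). Both siKLF7 arrays were above both controls in each.

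All 4 genes of nucleotide supply had both siKLF7 arrays above both controls, where 16.3% of all genes and 21.8% of the brighter 50% did. TYMS, thymidylate synthase, had the largest difference of the 48, at 8.51 and 9.59 in controls and 9.67 and 9.69 in siKLF7 arrays. Scramble control replicate 1 lay 1.14 below the mean of the other 3, and the TYMS difference of 0.63 (SE 0.38) became 0.09 (SE 0.15) with 3 arrays. RRM1, the large subunit of ribonucleotide reductase, stood at 10.76 and 10.73 in controls and 10.94 and 11.02 in siKLF7 arrays (0.23, SE 0.12; 0.25 with 3 arrays). RRM2, its small subunit, was described after its values were seen, and stood at 9.69 and 9.32 in controls and 9.72 and 9.76 in siKLF7 arrays (0.23, SE 0.18). With 3 arrays RRM2 had the smallest p of the 48, a difference of 0.42 (SE 0.15; limma's unadjusted p = 0.0080, adjusted p = 0.205). TK1, thymidine kinase, stood at 9.67 and 9.92 in controls and 10.00 and 10.12 in siKLF7 arrays (0.26, SE 0.16; 0.14 with 3 arrays).

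The choice of control decided which genes were called. Without scramble control replicate 2, so against scramble control replicate 1 alone, 12 of 48 passed limma's test, where 26.8% of all genes passed. In that fit 9 rose, namely CDC6, MCM6, GINS4, PCNA, RFC2, RFC4, PRIM1, TYMS and TK1, and 3 fell, GINS3, PRIM2 and RPA2, where 13.4% of all genes rose and 13.4% fell. TYMS rose by 1.17 and CDC6 by 1.07, where they stood at 0.09 and -0.03 against scramble control replicate 2 alone. PCNA rose by 0.69, against 0.21, and PRIM2 fell by 0.44, against 0.17 in the other direction. These fits share the siKLF7 arrays, and none of the 12 passed with 3 arrays against scramble control replicate 2.

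Genes with an E2F word had a median difference of 0.19 with 4 arrays (15 genes). Those with a listed promoter but no word had 0.13 (27 genes). With 3 arrays both medians were 0.16. Both siKLF7 arrays lay above both controls for 6 of the 15 and 13 of the 27, where 16.3% of all genes did. They lay below both for 0 and 1, where 28.9% of all genes did. Among those printed above, the siKLF7 arrays were both higher than the controls for PCNA, RFC3 and TYMS and not for MCM6, MCM7 and POLA2, and no test was made of the word against the differences.

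Related genes were read from lists outside the 48. With 3 arrays 0.89% of all genes rose and 0.679% fell. Called against scramble control replicate 1 alone, where 13.4% of all genes rose and 13.4% fell, the lists gave more calls: 5 rose and 1 fell among the fork factors, 5 rose and 8 fell among other nucleotide supply genes, 6 rose and 5 fell among E2F and G1/S genes and 3 rose and 1 fell among checkpoint genes. Of 36 measured licensing, firing and fork factors, 0 passed with 4 arrays and 1 rose with 3, and the medians were 0.09 and 0.11. That gene was TOP2A, the topoisomerase that untangles sister DNA, at 10.17 and 9.91 in controls and 10.50 and 10.47 in siKLF7 arrays (0.44 with 4 arrays; 0.58 with 3, SE 0.14; limma's adjusted p = 0.010). Without scramble control replicate 2 the TOP2A difference was 0.31 (limma's adjusted p = 0.084). TIPIN, a fork protection factor, differed by 0.35 (SE 0.13) with 4 arrays and 0.33 with 3, and passed in neither. POLE4, a small subunit of polymerase epsilon, stood at 8.34 and 8.85 in controls, and its difference of 0.55 (SE 0.21) with 4 arrays became 0.29 (SE 0.16) with 3, passing in neither.

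Of 25 other nucleotide supply genes, 0 passed in either fit, with medians of 0.00 and 0.03. With 4 arrays the 3 with the smallest p all lay lower, unlike the 4 above: PPAT, the first enzyme of purine synthesis, by -0.56 (SE 0.15; -0.56 with 3 arrays, limma's adjusted p = 0.060), DCTD, dCMP deaminase, by -0.41 (SE 0.15; -0.37 with 3 arrays), and CTPS1, CTP synthase, by -0.34 (SE 0.16; -0.20 with 3 arrays). PPAT stood at 9.38 in both controls and 8.95 and 8.69 in siKLF7 arrays. Of the 25 genes, 4 had both siKLF7 arrays above both controls and 5 below both, where 16.3% and 28.9% of all genes did.

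Among 29 E2F, pocket protein and G1/S kinase genes, 0 passed with 4 arrays, and 1 rose and 1 fell with 3. CCND3, cyclin D3, which acts before S phase, fell by 0.98 with 3 arrays (SE 0.16; limma's adjusted p = 2.6e-05), with levels of 10.99 and 9.65 in controls and 8.60 and 8.74 in siKLF7 arrays. Its difference was -1.65 (SE 0.46) with 4 arrays and -2.32 without scramble control replicate 2. CCNE2, a cyclin of S phase entry, rose by 0.66 with 3 arrays (SE 0.16; limma's adjusted p = 0.013), with levels of 7.22 and 7.96 in controls and 8.68 and 8.56 in siKLF7 arrays. Its difference was 1.03 (SE 0.27) with 4 arrays and 1.40 without scramble control replicate 2. E2F6, a repressive E2F factor, differed by 0.39 (SE 0.13) with 4 arrays and 0.30 with 3. For both cyclins the groups did not overlap, while the controls differed from each other by 1.34 for CCND3 and 0.74 for CCNE2.

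Of 15 checkpoint genes, 0 passed in either fit, with medians of 0.10 and 0.24. WEE1, the kinase that restrains CDK1, differed by 0.62 (SE 0.20) with 4 arrays and 0.40 with 3. ETAA1, an activator of ATR, differed by 0.61 (SE 0.19) and 0.48, and SMARCAL1, a fork remodeller, by -0.53 (SE 0.16) and -0.39. Of 25 G2/M and mitosis genes, 0 passed with 4 arrays and 9 rose with 3, with medians of 0.14 and 0.35. Against scramble control replicate 1 alone that median stood at -0.00081, with 12 differences above 0 and 13 below, and 5 rose and 1 fell. Scramble control replicate 1 was above scramble control replicate 2 by a median of 0.34 over these genes. KIF15, a mitotic kinesin, rose by 0.72 (SE 0.16; limma's adjusted p = 0.0038) with 3 arrays, and CCNB2, a mitotic cyclin, by 0.62 (SE 0.15; limma's adjusted p = 0.0082). With 4 arrays the differences were 0.69 for KIF15 and 0.54 for CCNB2. HMMR, a spindle protein, differed by 0.64 with 4 arrays and 0.56 with 3 (limma's adjusted p = 0.066 with 3). The difference between the mitotic and the replication genes was not tested.

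**Figure D5:**
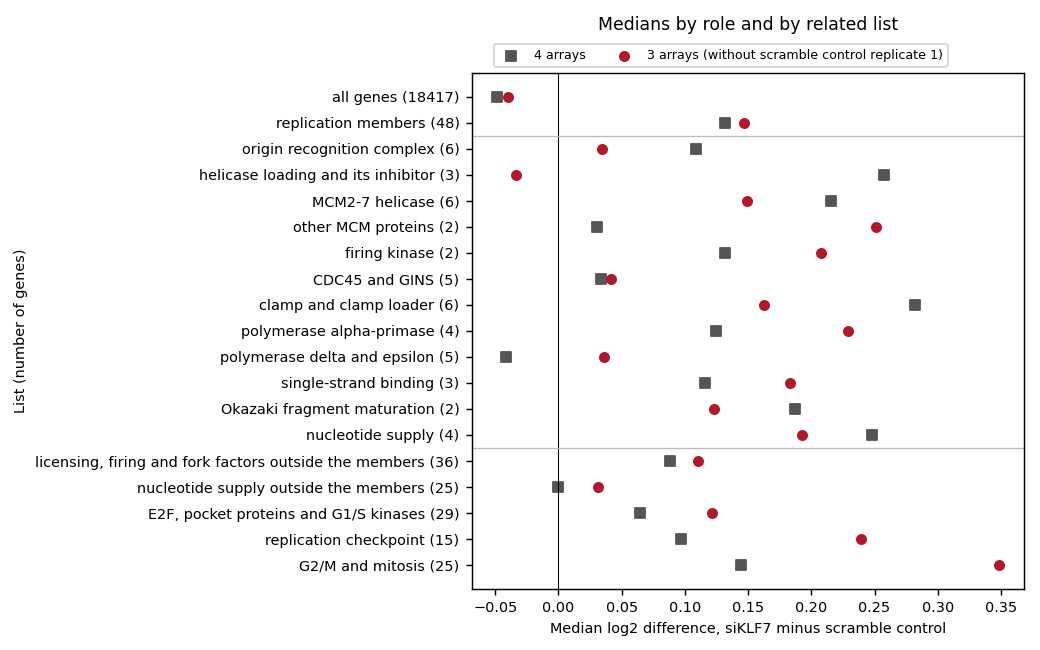
Median log2 difference, siKLF7 minus scramble control, of all genes, the 48 replication genes, each role among them and 5 related lists, with 4 arrays (squares) and 3 arrays (circles) and the number of genes in brackets. Role medians lie between -0.04 and 0.28, and the G2/M and mitosis list has the highest median with 3 arrays, 0.35.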

How the data were processed

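Total RNA of 2 scramble control and 2 siKLF7 samples was measured, grouped by the sample titles. The authors deposited array intensity values on a linear scale, for which the submitters' processing notes name PLIER 2.0 and Affymetrix Expression Console 1.1.1. Whether arrays were scaled to each other is not stated in those notes. Median signals were 185 to 194. Of 33297 features, 19460 carried 1 symbol, 1754 several and 12083 none; the feature with the highest mean was taken per gene, leaving 18417 genes.

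Values were analysed as log2(signal + 16), with no filter or further scaling. siKLF7 minus scramble control was fitted over all genes in limma 3.58.1 (lmFit, then eBayes with its trend option; R 4.3.3). P-values were adjusted by Benjamini-Hochberg, with 0.05 as the threshold. The fit without scramble control replicate 1 had 1 residual and 69.9 prior degrees of freedom, against 2 and 2.63 with 4 arrays. Fits were also run on simulated arrays with known changes. Their outcome is not given here, and no result rests on it. The number of arrays limits the precision.

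Members and lists were chosen with earlier results of these data known. Values were given for up to 3 genes of a role or list with the smallest p, for the largest differences and for genes that passed; others are said to be chosen after their values were seen, as were the counts above and below both controls. Some list genes without a single-symbol feature were not analysed here. Each fit was repeated without each array, with replicate number as a block, after quantile normalization or median centring, dropping the dimmest 25% or 50% of genes, with pseudocounts of 1 and 32, with an untrended or a robust prior, averaging all features of a gene, and at a threshold of 0.10. Matplotlib 3.10.9 drew the figures.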

Additional observations from a re-analysis of the deposited data

How the results depend on the processing

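With 2 arrays per group the control arrays decide most of what can be called. Leaving out each array in turn, the count of all genes past the threshold ran from 0 to 4928 and that of replication genes from 0 to 12, the highest without scramble control replicate 2 and 289 of all genes without scramble control replicate 1. The median over the replication genes ran from 0.11 to 0.15 over these fits, and was 0.16 without the dimmest 50% of genes, where all genes had a median of 0.01. With 3 arrays, quantile normalization gave 479 genes and median centring a replication median of 0.18; both were chosen after seeing the data. The count of replication genes past the threshold stayed 0 under quantile normalization, median centring, both filters, both pseudocounts, both priors, the mean of a gene's features, an adjusted p under 0.10 and the replicate block. With the replicate block the median was 0.13 and 0 of all genes passed. Same-numbered arrays deviated with a correlation of -0.04. With 2 arrays per group, and scramble control replicate 1 standing apart, that value cannot tell whether arrays were paired. The count below both controls was 1 with median centring, for which the share of all genes is not given here. Against scramble control replicate 1 alone 15 of the 48 lay below, where 48.2% of all genes did.

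Signs of the genes named next changed when an array was left out, most of them genes with small differences, but also CDC6 (0.52 with 4 arrays) and MCM6 (0.23). None passed the threshold in the fit that reversed it, though CDC6, MCM6 and PRIM2 passed without scramble control replicate 2. The ranges were -0.015 to 0.14 for ORC3, -0.011 to 0.26 for ORC4, -0.18 to 0.032 for ORC5, -0.033 to 1.07 for CDC6, -0.050 to 0.094 for CDT1, -0.25 to 0.27 for MCM3, -0.10 to 0.073 for MCM4, -0.048 to 0.50 for MCM6, -0.19 to 0.33 for MCM8, -0.19 to 0.18 for MCM10 and -0.12 to 0.26 for CDC7. They were -0.10 to 0.16 for CDC45, -0.38 to 0.35 for GINS1, -0.10 to 0.030 for RFC5, -0.17 to 0.23 for POLA2, -0.44 to 0.17 for PRIM2, -0.23 to 0.055 for POLD1, -0.020 to 0.036 for POLD2 and -0.11 to 0.030 for POLD3. MCM3 was also at -0.0098 with quantile normalization. The cause was not tested. The other replication genes kept their sign in each of these fits.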
